A study of Mus musculus with 6 samples.

Results

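Prostaglandins, thromboxane and leukotrienes are short-lived lipid mediators that cells make from arachidonic acid. Here 10 genes for the enzymes and helper proteins of their synthesis were followed in mouse RNA-seq. The paper describes the samples as CD8T cells kept with macrophages that had or had not received DB2313. The 10 genes were Ptgs1, Ptgs2, Ptges, Hpgds, Tbxas1, Alox5, Alox5ap, Lta4h, Ltc4s and Alox15, out of 54532 genes in the deposited table. They were chosen by name, with earlier results of these data known. All 10 were counted in every library and passed the filter on low counts, among 14883 tested genes.

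In the prostanoid branch, the cyclooxygenases Ptgs1 and Ptgs2 turn arachidonic acid into prostaglandin H2, which separate synthases then turn into prostaglandin E2, prostaglandin D2 or thromboxane. In the leukotriene branch, 5-lipoxygenase works with its membrane partner Alox5ap to make leukotriene A4, from which Lta4h makes leukotriene B4 and Ltc4s makes the cysteinyl leukotriene C4. Macrophages, neutrophils, mast cells and platelets are known for these pathways, whereas T cells are better known for responding to their products.

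CD8T cells had been isolated from mouse spleen and activated with anti-CD3/CD28 beads in both groups. Their partners for the next 24 hr were thioglycolate-induced peritoneal macrophages given 10 ng/mL IFN-γ over 12 hr, again in both groups. The groups differed in DB2313, which inhibits Spi1 (PU.1), a transcription factor of myeloid cells, and for which the methods give 14 nM. The macrophages of the DB2313 group received it and those of the control group did not. Each group had 3 samples, and the sources used here do not say whether these were separate cultures, so p-values measure the spread between the samples, which may be technical. The labels call the cocultured cells DC and the paper calls them macrophages. The methods give the mice only as totals for each cell type and tie no sample to a mouse.

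The libraries held 16611975 to 18596217 counts. Markers of several cell types were counted in every library. In these lists a gene fell or rose where it passed an adjusted p of 0.05 by edgeR, the test given below. By this rule 24.6% of all tested genes fell and 20.8% rose. A list of 20 T cell genes took 0.335% to 0.338% of control counts and 0.541% to 0.543% of DB2313 counts, and all 20 rose, by a median of 0.61 on the log2 scale. A list of 20 macrophage genes took 1.26% to 1.29% of control and 0.548% to 0.561% of DB2313 counts, and of the 18 tested genes 16 fell and 2 rose, with a median of -0.99. Of these macrophage genes, Vsig4 was at 0 in every library. A list of 10 neutrophil genes took 0.193% to 0.194% and 0.0724% to 0.0743%, with 9 lower and 1 higher. A list of 11 mast cell and basophil genes took 0.1002% to 0.102% and 0.0755% to 0.0785%. In that list 4 of 9 tested genes fell and 3 rose, and Mcpt4 and Tpsab1 had at most 5 counts in a library. A list of 9 platelet and megakaryocyte genes took 0.0261% to 0.0268% and 0.0442% to 0.0474%, with 7 of 8 tested genes higher and Gp1bb at 0 in every library. Of 8 tested eosinophil genes 3 fell and 1 rose, and the list took 0.0100% to 0.0105% and 0.00703% to 0.00762%. Of 9 tested dendritic cell genes 7 fell and 1 rose, with Siglech at 0 in every library, and the list took 0.164% to 0.167% and 0.148% to 0.153%. Of 9 tested B cell genes 1 fell and 5 rose, and the list took 0.0304% to 0.0308% and 0.0457% to 0.0465%. In both groups the macrophage list took more of the counts than the T cell list of the same size, though by little in the DB2313 group. Lyz2 alone gave 128493 to 138332 counts in the control libraries and 35962 to 38833 in the DB2313 libraries. Because markers of several cell types were counted, the levels below are those of mixed RNA and cannot be assigned to CD8T cells alone. In RNA of mixed cells, fewer cells of a type and less RNA per cell cannot be told apart, and the part of these markers in the results was not tested.

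Together, the 10 enzymes took 0.0608% to 0.0622% of control counts and 0.0466% to 0.0479% of DB2313 counts. At an adjusted p of 0.05 (edgeR's quasi-likelihood test, Benjamini-Hochberg adjustment over all tested genes), 8 of the 10 enzymes were lower in the DB2313 group, against 24.6% of all tested genes. Only Lta4h was higher by this test, though not when scaled to the T cell genes, against 20.8% of all tested genes, and Alox15 did not pass. In either direction this makes 9 of 10, against 45.4%. Because the 10 were chosen with earlier results of these data known, these shares only describe the list. With a fold change of more than 2 as a further condition, Ptges and Hpgds were lower, against 5.3% of all tested genes, and none of the 10 was higher, against 1.37%. The median log2 fold change of the 10 was -0.92, beside 0.019 over all tested genes. For 8 of the 10, every DB2313 library lay below every control library, against 27.5% of all tested genes, and for Lta4h every DB2313 library lay above, against 25.6%. With 3 samples against 3, a two-sided exact permutation test of 1 gene cannot give a p below 0.1, and each of these 9 genes reached it.

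**Figure D1:**
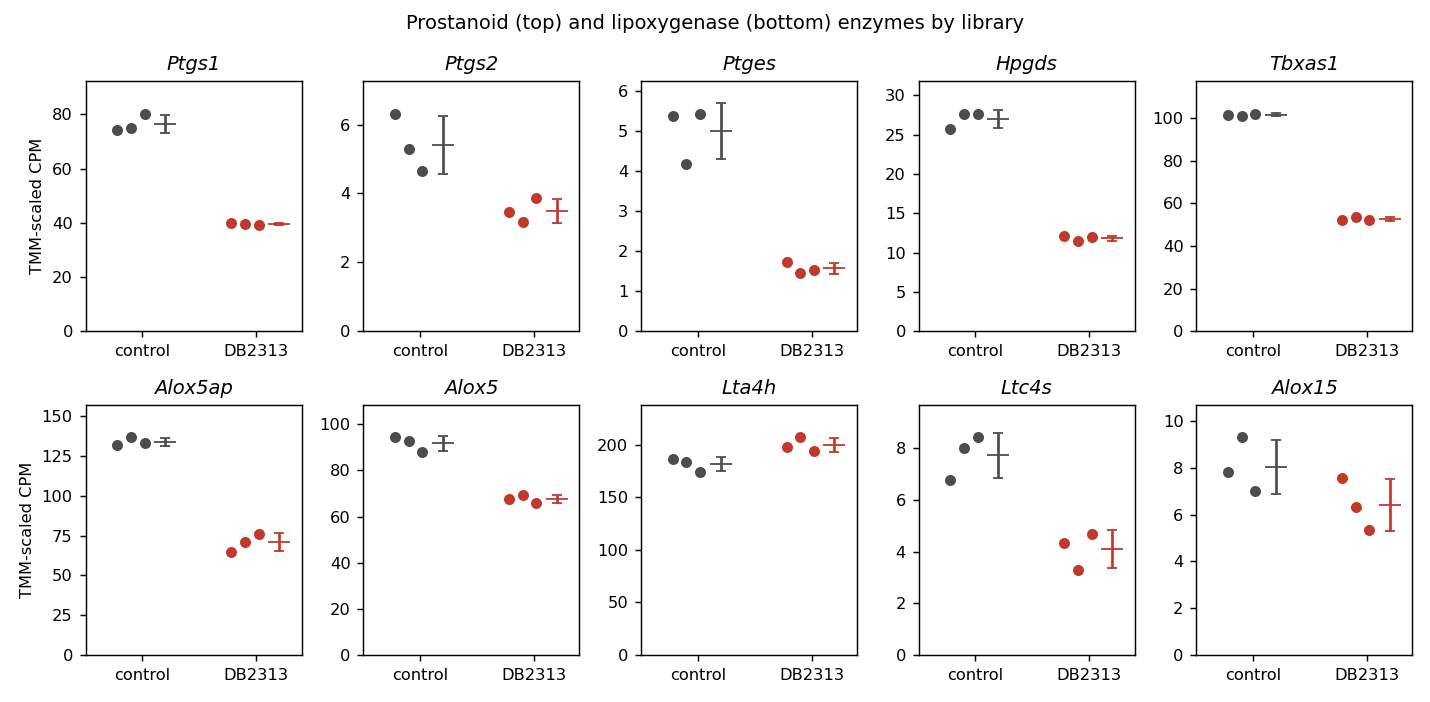
CPM (read counts scaled to the TMM-normalised library size) of the 10 enzymes in each of the 6 libraries, with prostanoid enzymes in the top row and lipoxygenase pathway genes in the bottom row; points are libraries, and the bar beside them is the mean ± SD of 3. The DB2313 points lie below all control points for 8 genes, above them for Lta4h, and overlap them for Alox15.

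Ptgs1, the constitutive cyclooxygenase (ENSMUSG00000047250, chromosome 2 of GRCm38 from 36230426 to 36252272), was at 74.3, 75.1 and 80.3 CPM in the control libraries and at 39.9, 39.4 and 39.0 CPM in the DB2313 libraries. The groups were far apart and the DB2313 libraries were almost alike. On the log2 scale this was a change of -0.96 (standard error, SE, 0.056, adjusted p = 9.67e-13 by edgeR), or 1.94-fold lower.

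Ptgs2, the inducible cyclooxygenase (ENSMUSG00000032487, chromosome 1 from 150100031 to 150108227), was counted far less, with 114, 91 and 76 reads in the control libraries and 64, 54 and 71 in the DB2313 libraries. In CPM these were 6.32, 5.29 and 4.64 against 3.46, 3.17 and 3.86. The groups did not overlap, but the lowest control library lay close to the highest DB2313 library. The log2 fold change was -0.63 (SE 0.18, adjusted p = 0.00716 by edgeR), and without control replicate 1 it was -0.50 and no longer passed (adjusted p = 0.0646).

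Per length, Ptgs1 exceeded Ptgs2 by a wide margin in every library. The ratio of their RPKM values (CPM divided by gene length) was 17.0 ± 3.27 for control and 13.4 ± 1.39 for DB2313 libraries (SD, n = 3 each). These ratios overlapped between the groups (exact two-sided permutation, p = 0.2). This ratio and the others below were chosen after the values of these genes were known, and they do not depend on how the libraries were scaled.

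Ptges, the inducible microsomal prostaglandin E synthase (ENSMUSG00000050737, chromosome 2 from 30889471 to 30929863), had the largest change of the 10. Its counts were 97, 72 and 89 in control and 32, 25 and 28 in DB2313 libraries, or 5.38, 4.19 and 5.44 against 1.73, 1.47 and 1.52 CPM. Even the lowest control library lay well above the highest DB2313 library. The log2 fold change was -1.66 (SE 0.22, adjusted p = 1.57e-06 by edgeR), or 3.17-fold lower. Neither of the other enzymes with prostaglandin E synthase activity passed the test. The change was 0.056 in Ptges3 (95% interval -0.031 to 0.14) and 0.15 in Ptges2 (95% interval -0.060 to 0.36), on the log2 scale. Both depended on scaling. With library size they were 0.15 and 0.25 and passed, and when scaled to the T cell genes they were -0.54 and -0.44.

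Hpgds, the hematopoietic prostaglandin D synthase (ENSMUSG00000029919, chromosome 6 from 65117293 to 65144908), was at 25.7, 27.6 and 27.7 CPM in the control libraries and at 12.07, 11.43 and 11.96 CPM in the DB2313 libraries. All control libraries exceeded all DB2313 libraries, with little spread in either group. The change on the log2 scale was -1.19 (SE 0.088, adjusted p = 7.52e-11 by edgeR), or 2.28-fold lower. Tested with glmTreat against a change of 2-fold rather than none, Ptges passed (adjusted p = 0.0305) and Hpgds did not (adjusted p = 0.165).

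Tbxas1, thromboxane A synthase (ENSMUSG00000029925, chromosome 6 from 38875404 to 39084585), was at 101.6, 100.7 and 102.0 CPM in the control libraries and at 51.9, 53.7 and 52.0 CPM in the DB2313 libraries. Relative to its mean, it had the least spread of the 10 between control libraries. The log2 fold change was -0.95 (SE 0.047, adjusted p = 3.82e-14 by edgeR), close to that of Ptgs1, which acts just before it. Tbxas1 shares 762 bases with Hipk2 on the other strand, and Hipk2 fell as well (log2 fold change -0.68, SE 0.072). Some reads could therefore belong to either gene if strand was not used in counting. Alox5ap likewise shares 5117 bases with Gm19719 on the other strand, which had 2 to 12 counts in a library. Per length, the ratio of Tbxas1 to Ptges went from 8.89 ± 1.30 to 14.5 ± 1.47 and that of Hpgds to Ptges from 3.36 ± 0.596 to 4.61 ± 0.304 (SD, n = 3 each). Both were higher in all DB2313 libraries than in any control library (exact two-sided permutation, p = 0.1 each, unadjusted, among 5 ratios computed).

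The promoter windows of the members were read from RefSeq's GRCm38.p6 annotation, because Spi1 is the target of DB2313. Spi1 and its relatives bind DNA around a purine-rich GGAA core, and the letters GAGGAA were searched on both strands in the 250 bases before each transcript start. Of the 8 members with an entry, 7 held these letters once, and they were found in 23.3% of all 32841 promoter windows of the same length. Alox5ap and Alox15 had no entry. The shorter GGAA core was not searched for, though it occurs in the Ltc4s window below, which lacks GAGGAA. Windows are shown for the 2 genes with the largest falls, for Lta4h, which rose, and for Ltc4s, which fell but lacked the letters, all 5′ to 3′ in the direction of the gene, with GAGGAA or its reverse complement TTCCTC in capitals.
Ptges: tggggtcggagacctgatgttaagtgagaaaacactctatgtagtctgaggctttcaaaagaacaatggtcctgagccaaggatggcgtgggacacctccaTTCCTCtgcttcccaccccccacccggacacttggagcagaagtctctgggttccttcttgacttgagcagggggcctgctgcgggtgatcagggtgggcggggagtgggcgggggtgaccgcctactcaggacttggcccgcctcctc
Hpgds: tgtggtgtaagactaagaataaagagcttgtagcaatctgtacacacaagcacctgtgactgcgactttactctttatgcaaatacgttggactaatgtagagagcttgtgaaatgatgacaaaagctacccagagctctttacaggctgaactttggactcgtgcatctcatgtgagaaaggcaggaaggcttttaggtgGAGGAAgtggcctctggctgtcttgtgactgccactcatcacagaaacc
Lta4h: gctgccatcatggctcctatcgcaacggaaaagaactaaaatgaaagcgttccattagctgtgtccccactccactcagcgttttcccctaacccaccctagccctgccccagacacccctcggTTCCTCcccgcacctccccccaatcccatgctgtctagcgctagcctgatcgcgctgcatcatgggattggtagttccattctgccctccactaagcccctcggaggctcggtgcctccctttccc
Ltc4s: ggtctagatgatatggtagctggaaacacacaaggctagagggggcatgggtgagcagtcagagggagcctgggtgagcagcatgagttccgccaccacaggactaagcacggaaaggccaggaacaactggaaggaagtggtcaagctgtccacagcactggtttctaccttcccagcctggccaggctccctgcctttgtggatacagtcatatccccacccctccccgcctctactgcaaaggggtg
The windows lie at chr2:30903298-30903547 on the minus strand for Ptges, chr6:65144731-65144980 on the minus strand for Hpgds, chr10:93453146-93453395 on the plus strand for Lta4h and chr11:50238533-50238782 on the minus strand for Ltc4s. The RefSeq starts do not all match the first base of the gene in the deposited table. Those of Tbxas1 and Ptges lie 43582 and 26566 bases inside it, those of Hpgds and Ltc4s 178 and 84 bases inside it, and that of Lta4h 15 bases before it, while those of Ptgs1, Ptgs2 and Alox5 match. The letters ended 44 bases before the start in Hpgds, 144 in Ptges and 121 in Lta4h, and among the windows not shown 19 in Ptgs1, 14 in Tbxas1, 131 in Alox5 and 242 in Ptgs2. Ptgs1, Ptgs2, Ptges, Alox5, Hpgds and Tbxas1, which fell, and Lta4h, which rose, held the letters, while Ltc4s fell without them. A match of letters does not show that a factor was bound. Whether Spi1 acts on any of these genes was not tested.

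Alox5ap, the 5-lipoxygenase activating protein (ENSMUSG00000060063, chromosome 5 from 149264767 to 149288153), was at 131.6, 136.7 and 133.4 CPM in the control libraries and at 65.0, 71.1 and 76.1 CPM in the DB2313 libraries. All control libraries lay above all DB2313 libraries by a wide margin. On the log2 scale it changed by -0.92 (SE 0.049, adjusted p = 1.68e-13 by edgeR), or 1.89-fold lower.

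Alox5, 5-lipoxygenase itself (ENSMUSG00000025701, chromosome 6 from 116410077 to 116461178), was at 94.3, 92.9 and 87.9 CPM in the control libraries and at 67.6, 69.2 and 66.0 CPM in the DB2313 libraries. The groups did not overlap, but the fall was smaller, with a log2 fold change of -0.44 (SE 0.047, adjusted p = 4.46e-08 by edgeR). The ratio of Alox5ap to Alox5 per length went from 4.23 ± 0.178 to 3.03 ± 0.284 (SD, n = 3 each). Every DB2313 library had a lower ratio than every control library (exact two-sided permutation, p = 0.1). Cotl1, a protein that binds 5-lipoxygenase and actin, was the most abundant of the related synthesis genes and fell from 661 ± 14.3 to 466 ± 11.7 CPM (SD, n = 3 each), a log2 fold change of -0.51 (SE 0.033).

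The genes that act on leukotriene A4 moved apart. Lta4h, which makes leukotriene B4 (ENSMUSG00000015889, chromosome 10 from 93453411 to 93484875), was at 186.5, 184.0 and 174.5 CPM in the control libraries and at 198.2, 207.0 and 194.3 CPM in the DB2313 libraries. The DB2313 libraries were all higher, although by little, with a log2 fold change of 0.14 (SE 0.038, adjusted p = 0.00502 by edgeR). The direction depended on scaling, being -0.46 under scaling to T cell genes, which moved the median of all genes to -0.57.

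Ltc4s, which joins leukotriene A4 to glutathione (ENSMUSG00000020377, chromosome 11 from 50236461 to 50238616), was represented by 122, 138 and 138 reads in control and 80, 56 and 86 reads in DB2313 libraries, or 6.76, 8.03 and 8.43 against 4.33, 3.28 and 4.67 CPM. The groups were separate, with more relative spread than in the abundant genes. Its log2 fold change was -0.91 (SE 0.17, adjusted p = 9.70e-05 by edgeR). Ltc4s shares 1664 bases with Gm26542 on the other strand, which had 13 to 19 counts in a library. If strand was not used in counting, reads there could belong to either gene, which bears on the level of Ltc4s. The ratio of Lta4h to Ltc4s per length went from 3.94 ± 0.584 to 8.33 ± 1.89 (SD, n = 3 each), and was higher in all DB2313 libraries than in any control library (exact two-sided permutation, p = 0.1). Mgst2, a microsomal glutathione transferase that can also make leukotriene C4, was chosen after its values were seen and changed by 0.14 on the log2 scale (SE 0.055, adjusted p = 0.0373 by edgeR). This call was not stable, with an adjusted p of 0.0961 by DESeq2, values of 0.096 to 0.15 that did not pass without control replicate 1 or 3 or DB2313 replicate 1 or 2, and -0.45 when scaled to the T cell genes.

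**Figure D2:**
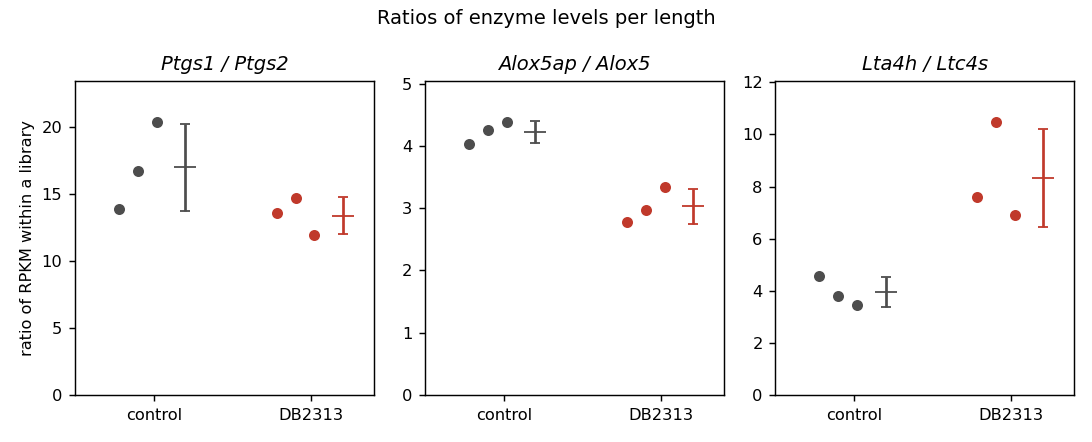
Ratios of RPKM between gene pairs within each of the 6 libraries; points are libraries, and the bar beside them is the mean ± SD of 3. The ratio of Alox5ap to Alox5 is lower and that of Lta4h to Ltc4s higher in all DB2313 libraries, while the ratios of Ptgs1 to Ptgs2 overlap.

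Alox15, the 12/15-lipoxygenase of resident peritoneal macrophages and eosinophils (ENSMUSG00000018924, chromosome 11 from 70344152 to 70352031), was represented by 141, 160 and 115 reads in control and 140, 108 and 98 reads in DB2313 libraries. In CPM these were 7.81, 9.31 and 7.03 against 7.58, 6.33 and 5.33, and the groups overlapped. Its log2 fold change was -0.33 with a 95% interval from -0.65 to -0.0059, and it did not pass after adjustment (adjusted p = 0.0907 by edgeR). Without DB2313 replicate 1 it was -0.47 and passed (adjusted p = 0.0293).

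**Figure D3:**
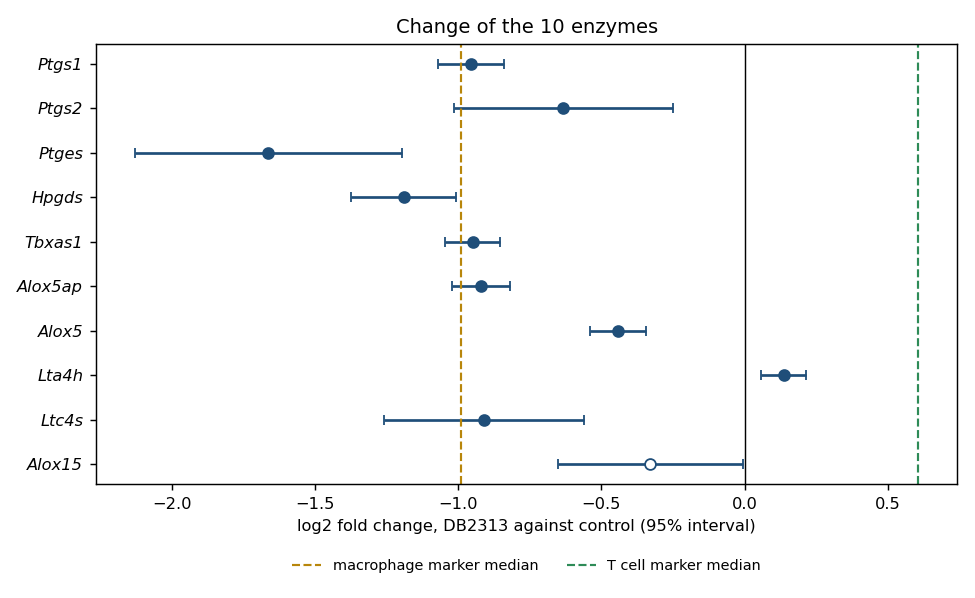
Log2 fold change of each of the 10 enzymes with its 95% interval; filled points passed an adjusted p of 0.05 and the open point, Alox15, did not. Dashed lines mark the median log2 fold change of the macrophage markers (-0.99) and of the T cell markers (0.61).

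Set beside the median of the macrophage markers, 2 of the 10 enzymes, Ptges and Hpgds, lay below it and the other 8 above. Ptgs1, Tbxas1, Alox5ap and Ltc4s lay within 0.035 to 0.080 of that median on the log2 scale. Alox5 lay 0.55 and Lta4h 1.13 above it. Set beside the median of the T cell markers, all 10 were lower, from -0.47 in Lta4h to -2.27 in Ptges. The macrophage markers themselves ran from -2.16 to 0.78. Ptgs1, Tbxas1, Alox5ap and Ltc4s lay at -0.94 to -0.89 from the mast cell and basophil median of -0.019. That median stands for genes that moved apart, from -5.40 in Tpsb2 to 0.52 in Mcpt8. The medians of the neutrophil and platelet lists were -1.62 and 0.72. Those of the dendritic cell, eosinophil and B cell lists were -0.44, -0.28 and 0.46. Which cells these enzyme RNAs came from was not tested.

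Compared per length, the level of Alox5ap was the highest in both groups, at 94.3 ± 1.81 RPKM for control and 49.8 ± 3.94 RPKM for DB2313 libraries (SD, n = 3 each). Lta4h, Alox5, Ptgs1, Tbxas1 and Ltc4s followed in this order in both groups. The lower ranks differed. In the control group Hpgds, at 4.20 ± 0.179 RPKM, stood above Alox15, at 3.28 ± 0.473 RPKM, and in the DB2313 group it stood below, at 1.84 ± 0.0535 against 2.61 ± 0.460 RPKM (SD, n = 3 each). Ptges and Ptgs2 were last in both groups, with overlapping levels in the control group, at 1.27 ± 0.179 and 1.18 ± 0.184 RPKM. In the DB2313 group Ptges was the lower of the pair, at 0.400 ± 0.0358 against 0.763 ± 0.0760 RPKM. Apart from Ptges and Ptgs2 in the control group, the libraries of neighbours in these orders did not overlap.

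Genes with the most similar pattern over the 6 libraries were sought for Hpgds and Ptgs1, by the Euclidean distance between log2 CPM values centred on each gene's mean, among 13601 genes of at least 1 CPM on average. For Hpgds they were Hk3, Basp1 and Atp6v0d2, at distances of 0.0751 to 0.0888, and for Ptgs1 they were Ctsh, Spire1 and Ehd1, at 0.0549 to 0.0742. Their log2 fold changes were -1.17 to -1.19 and -0.93 to -0.98, close to that of the member in each case. This closeness follows from the choice, because the distance was taken over the same 6 libraries, which fall into 2 groups.

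Other genes of the pathway were followed by role, from lipases that release arachidonic acid or act on phospholipid to the receptors. Of 12 tested lipase genes, 6 fell and Faah and Pla2g12a rose, and the median change was -0.19, beside 24.6% lower and 20.8% higher among all tested genes. The value of Pla2g12a, 0.29, did not pass with DESeq2 (adjusted p = 0.0715) or when control replicate 1, control replicate 2 or else DB2313 replicate 2 was left out (0.22 to 0.28). The directions of both depended on scaling, at -0.11 for Faah and -0.31 for Pla2g12a when scaled to the T cell genes. Pla2g7, which inactivates platelet-activating factor, was the most abundant and fell from 431 ± 7.29 to 122 ± 3.59 CPM (SD, n = 3 each), a log2 fold change of -1.82 (SE 0.036). Mgll, which breaks down monoacylglycerols including an arachidonic acid ester, fell by 1.45 on the log2 scale (SE 0.076). Pla2g15 and Pla2g16, a lysosomal and an adipose-type phospholipase, fell by 0.85 and 0.35. Pla2g4a, the cytosolic phospholipase that supplies arachidonic acid to both branches, was looked at after its values were seen and fell by 0.53 (SE 0.070).

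Of 15 tested genes of other synthesis steps, Ptgis, Mgst1, Cbr3, Fam213b and Cotl1 fell and Alox12e, Mgst2, Cbr1 and Akr1b3 rose, and the median change was 0.056. These counts lie near the shares of all tested genes, 24.6% lower and 20.8% higher. Of the genes that rose, only Akr1b3 passed with DESeq2, and Alox12e, Mgst2 and Cbr1 each failed in 4 of the 6 fits that left out 1 sample. Cbr1, at 0.25, had an adjusted p of 0.0506 with DESeq2 and was at -0.34 when scaled to the T cell genes. Ptgis, prostacyclin synthase, was at 29, 35 and 29 reads in control and 7, 7 and 5 reads in DB2313 libraries, a log2 fold change of -2.33 (SE 0.39, adjusted p = 3.32e-05 by edgeR). Mgst1, a microsomal glutathione transferase of the same superfamily as Ptges, Ltc4s and Alox5ap, fell by 1.04 on the log2 scale (SE 0.057). Alox12e, an epidermal-type lipoxygenase, was at 6 to 16 counts in the control libraries and 18 to 33 in the DB2313 libraries, a log2 fold change of 1.11 (adjusted p = 0.0283 by edgeR) that did not pass with DESeq2 (adjusted p = 0.0980). Akr1b3, an aldose reductase with prostaglandin F synthase activity, had a log2 fold change of 0.32 (SE 0.038), which was -0.28 when scaled to the T cell genes.

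Of 12 tested genes of inactivation and export, 7 fell and Cyp4f18 rose, with a median of -0.30, beside 24.6% lower and 20.8% higher among all tested genes. The value of Cyp4f18 was 0.29 (SE 0.086), and it did not pass without control replicate 2 (0.20, adjusted p = 0.0917 by edgeR) or DB2313 replicate 2 (0.22, adjusted p = 0.0636), and was -0.31 when scaled to the T cell genes. Leukotriene C4 leaves the cell through Abcc1 and is trimmed outside by gamma-glutamyl transferases and dipeptidases. Abcc1 went from 114 ± 6.21 to 86.0 ± 5.78 CPM (SD, n = 3 each), a log2 fold change of -0.40 (SE 0.0505). Ggt5, chosen after its values were seen, fell by 0.83 (SE 0.16). Ggt1, the other listed transferase, was at -0.20 (SE 0.32) and did not pass. Dpep2 fell by 1.13 (SE 0.28) at 18 to 55 counts in a library, and a further row of the same name had at most 10 counts. Dpep3 had a log2 fold change of -1.15 at 10 to 35 counts, which did not pass with DESeq2 (adjusted p = 0.0805) or in 4 of the 6 fits that left out 1 sample. Cyp4f16 was at -0.28 (SE 0.079), and Zadh2, a prostaglandin reductase, at 0.12 (SE 0.057), which did not pass. Zadh2 passed with library size (0.21, adjusted p = 0.00352 by edgeR) and upper quartile scaling (0.18, adjusted p = 0.0105), and was at -0.47 when scaled to the T cell genes.

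Of 12 tested receptor genes, 9 fell and 1 rose, with a median of -0.48, beside 24.6% lower and 20.8% higher among all tested genes. The leukotriene B4 receptor Ltb4r1 went from 29.2 ± 2.45 to 13.4 ± 1.60 CPM (SD, n = 3 each), a log2 fold change of -1.12 (SE 0.096). The cysteinyl leukotriene receptor Cysltr1 went from 15.8 ± 2.42 to 5.63 ± 0.844 CPM (SD, n = 3 each), a log2 fold change of -1.49 (SE 0.14). Ltb4r1 and Cysltr1 were thus lower in the DB2313 group, as were Alox5ap, Ltc4s and 24.6% of all tested genes, while Lta4h was higher with TMM scaling. Cysltr2, another cysteinyl leukotriene receptor, was looked at after its values were seen and changed less, by -0.37 (SE 0.13). Whether the receptors and enzymes changed together was not tested. Ltb4r2, the low-affinity leukotriene B4 receptor, was at -1.19 with 11 to 37 counts in a library, and without control replicate 2 it did not pass (log2 fold change -0.95, adjusted p = 0.0979).

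Fpr2, a receptor of formyl peptides and lipoxin, fell by 2.29 on the log2 scale (SE 0.070), the most of these receptors, and Cmklr1, the chemerin receptor, by 1.73 (SE 0.085). Ptger4, a prostaglandin E2 receptor that T cells and macrophages share, went from 85.8 ± 1.01 to 69.6 ± 2.45 CPM (SD, n = 3 each), a log2 fold change of -0.30 (SE 0.047). Tbxa2r, the thromboxane receptor, was the only receptor that rose with TMM scaling, from 35.0 ± 1.35 to 58.2 ± 2.81 CPM (SD, n = 3 each). On the log2 scale this was 0.73 (SE 0.063, adjusted p = 9.68e-10 by edgeR), against -0.95 for the thromboxane synthase Tbxas1. Ptgdr, a prostaglandin D2 receptor, had no count in any library, and a count of 0 allows up to 3 counts in a library.

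**Figure D4:**
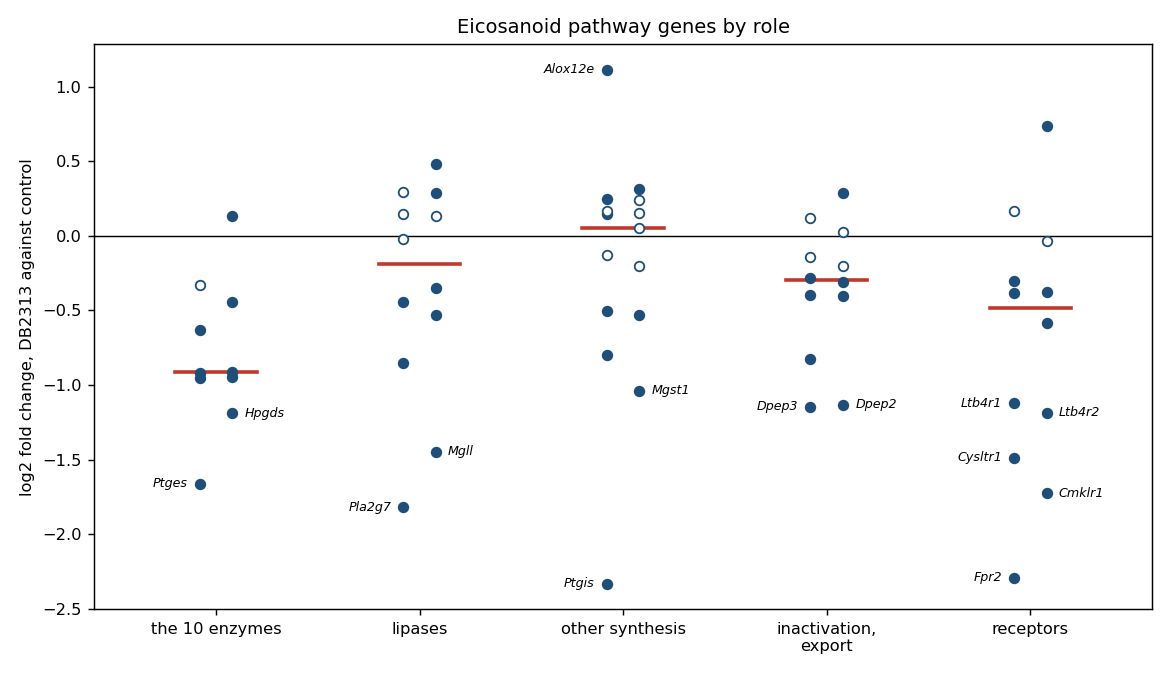
Log2 fold change of the tested genes of each role in the eicosanoid pathway; filled points passed an adjusted p of 0.05, red bars are medians, and names are given where the change was more than 2-fold. The medians run from -0.92 for the 10 synthesis enzymes to 0.056 for the other synthesis genes.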

How the data were processed

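The paper describes RNA-seq of CD8T cells from coculture, with 3 samples per group here, and the libraries also held markers of other cell types. The authors deposited raw read counts per gene without normalization. The submitters' processing notes name CASAVA 1.8, HISAT2 2.0.5 and featureCounts 1.5.0-p3, whereas the paper's methods name LifeScope, and the genome build and strand setting are not given in the sources used here. All 10 members had the coordinates of GRCm38 in GENCODE mouse release 21. The gene length in bases is a column of the deposited table.

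Counts were tested with edgeR 4.0.16 in R 4.3.3 (filterByExpr, TMM, glmQLFit and glmQLFTest), with Benjamini-Hochberg adjustment over all 14883 tested genes. CPM and RPKM were computed from the counts with TMM-scaled library sizes, and standard errors and 95% intervals from the fitted change and its test. The script was tested on simulated counts, where DESeq2, which was run without the filter, called fewer of the 2-fold changes than edgeR did. The share that DESeq2 had to recover was lowered after a first run. Replicates of a group differed by more than the sampling noise (chi-square per gene 2.55 to 4.01), so none was counted as a copy. Totals of 16611975 to 18596217 counts limit the precision of genes with few counts, and floors cover counting error only.

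The members, gene lists and tests were chosen with earlier results of these data known. Named pathway genes are those past both thresholds and the 3 of highest mean CPM in each list. Pla2g4a, Ggt5, Ggt1, Cysltr2, Ptges2, Mgst2 and the further genes named to spell out small counts were chosen after their values were seen. Genes of similar pattern were sought for the 3 members with the largest changes, and those of Ptges are not reported here. Of the list names, 4 had no row in the table, of which Plaat3, Prxl2b and Ptgr3 are other symbols of listed genes. Alternatives were DESeq2 1.42.0, library size, upper quartile and T cell gene scaling, other filters, a replicate block, glmTreat and leaving out each sample.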

Additional observations from a re-analysis of the deposited data

How the results depend on the processing

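Among the alternatives, 126 of 130 values of the 10 enzymes had the same sign and the same call. The exceptions were Ptgs2 without control replicate 1 (-0.50, with -0.73 to -0.50 over the 6 fits that each left out 1 sample), Alox15 without DB2313 replicate 1 (-0.47, with -0.47 to -0.21 over those fits) and scaled to the T cell genes (-0.92), and Lta4h scaled to the T cell genes (-0.46). That scaling moved the median of all tested genes to -0.57, and library size moved it to 0.11. Relative to these medians Lta4h was at 0.12 in both. Scaling to the T cell genes also reversed Akr1b3 (-0.28), Ptges3 (-0.54), Zadh2 (-0.47), Faah (-0.11), Pla2g12a (-0.31), Ptges2 (-0.44), Mgst2 (-0.45), Cbr1 (-0.34) and Cyp4f18 (-0.31). With it, 0 members were higher and 8 lower by more than 2-fold. It left 13 other synthesis and 12 inactivation and export genes lower. Under it 0 lipase, 0 other synthesis and 0 inactivation and export genes were higher. Of all 14883 tested genes, the same scaling left 11551 lower, 2541 of them by more than 2-fold, and 162 higher. With glmTreat 1 member was lower by more than 2-fold, beside 400 of all tested genes.

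With DESeq2, 1 lipase gene and 1 other synthesis gene were higher. With library size scaling, 7 other synthesis, 2 inactivation and export and 2 receptor genes were higher, and with upper quartile scaling 2 inactivation and export genes. Among all genes of each fit, 2368 were higher with DESeq2, 4931 with library size and 4319 with upper quartile scaling, against 3096 with TMM. Each fit that left out 1 sample gave 2558 to 2894 higher. Over the fits that each left out 1 sample, 1 to 2 lipase genes, 1 to 4 other synthesis genes and 0 to 1 inactivation and export genes were higher; the cause was not tested. The lipase count was 1 when control replicate 1, control replicate 2 or else DB2313 replicate 2 was left out. The other synthesis count was 1 without control replicate 1, DB2313 replicate 1 or DB2313 replicate 2 and 2 without control replicate 3. The inactivation and export count was 0 without control replicate 2 or DB2313 replicate 2. With the replicate number as a block, 3525 genes were lower and 2912 higher, the members' counts were 8 lower and 1 higher, and no member's call changed. Same-numbered samples did not deviate together (correlations from -0.10 to -0.0039 over 9666 genes), so the numbers were not taken as pairs. Depth limits Ptgs2, Ptges, Ltc4s and Alox15, which had at most 160 counts in a library.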
